A study of Mus musculus with 18 samples.

Results

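The genes described here are 6 that a macrophage uses to make nitric oxide and itaconate and to spend arginine: Nos2, Acod1, Ass1, Slc7a2, Arg1 and Arg2. They were chosen by name, as the rows of the deposited gene table with exactly these symbols, and 6 of 6 were found among its 45777 genes. Reads were counted for 6 of 6 in at least 1 library. The test covered 14650 genes with enough reads, and 4 of the 6 were among them, namely Nos2, Acod1, Ass1 and Arg2. Arg1 and Slc7a2 had too few reads to test.

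Nos2 encodes inducible nitric oxide synthase, which makes nitric oxide and citrulline from arginine and is switched on in macrophages by microbial products and interferons. Ass1 starts the return of citrulline to arginine, Slc7a2 brings arginine into the cell, and the arginases Arg1 and Arg2 draw on the same arginine to give ornithine and urea. Acod1, also known as Irg1, makes itaconate from an intermediate of the citrate cycle and is among the genes that activated macrophages are known to raise most.

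The libraries were made from RAW264.7, a mouse macrophage-like cell line, and all groups share the labelled genotype WT and 6 h of treatment in medium without serum. Each of the 6 groups had 3 libraries. One group received DMSO, the vehicle, one 20 uM SB24011, and one 20 uM cGAMP, a cyclic dinucleotide that activates the adaptor STING. The remaining 3 received the same dose of cGAMP together with SB24011 at 10 uM, SB24011 at 20 uM or 7a at 20 uM. SB24011 inhibits the STING-TRIM29 interaction, by the title of the series. In the design text 7a is a negative analog. There was no group with 7a alone or with 10 uM SB24011 alone, and a single cell line at a single time was studied.

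Library totals lay between 45165780 and 65810517 counts. The labels do not say that the libraries of a group came from separate cultures, so p-values measure the spread between libraries only. In bulk RNA, fewer expressing cells and less RNA per cell cannot be told apart. Reads of 10 macrophage markers, such as Csf1r, Adgre1 and Cd68, were counted in 18 of 18 libraries. Their summed level was 5091 to 5758 CPM with SB24011 alone and 5990 to 7015 CPM in DMSO. Of 3 endothelial markers, Kdr and Cdh5 had reads in 18 of 18 libraries, and the summed level of the 3 was 0.345 to 0.960 CPM without cGAMP and 2.23 to 5.08 CPM with it, and its part in the results was not tested. The defining markers Cd3e, Ms4a1, Col1a1, Epcam, Ly6g and Hbb-bs were at 0 in every library. Of the same T cell, B cell, fibroblast and erythroid lists, Cd4 had 29 reads in 6 libraries, Cd79a 30 in 7, Pdgfra 8 in 4 and Hba-a1 8 in 2, and no summed level of these lists was above 0.145 CPM. Library numbers in the labels form 3 sets, one for each replicate, and set 1 stood apart for several of the genes described here.

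cGAMP raised Nos2, Acod1 and Ass1, and SB24011 added to cGAMP raised Nos2 and Ass1 further. With cGAMP against DMSO, 3 of the 4 tested genes were called higher, beside 15.6% of all genes tested, where called means an adjusted p under 0.05 in edgeR's quasi-likelihood test. SB24011 alone raised Nos2, so that 1 of 4 was called higher beside 20.4% of all genes. Adding 20 uM SB24011 to cGAMP gave 2 of 4 called higher, beside 21.7%, and adding 10 uM gave the same count beside 19.9%. None of the 4 was called lower in any comparison, where the share of all genes called lower was 19.8% with cGAMP, 24.3% with SB24011 alone, 20.6% and 19.1% with 20 and 10 uM SB24011 on cGAMP, 16.7% against 7a and 12.4% with cGAMP on SB24011. The libraries of both groups did not overlap for 3 of 4 genes with cGAMP, beside 47.5% of all genes, for 1 with SB24011 alone (56.6%) and for 2 with 20 uM or 10 uM SB24011 on cGAMP (49.5% and 50.5%). They did not overlap for 1 gene against 7a (42.9%), for 3 with cGAMP on SB24011 (40.2%) and for 0 between the doses (7.04%). These shares show how common such differences were in the whole table. Levels are in CPM, which puts the read counts of every library on one total with edgeR's TMM factors, in the order of replicates 1, 2 and 3.

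**Figure D1:**
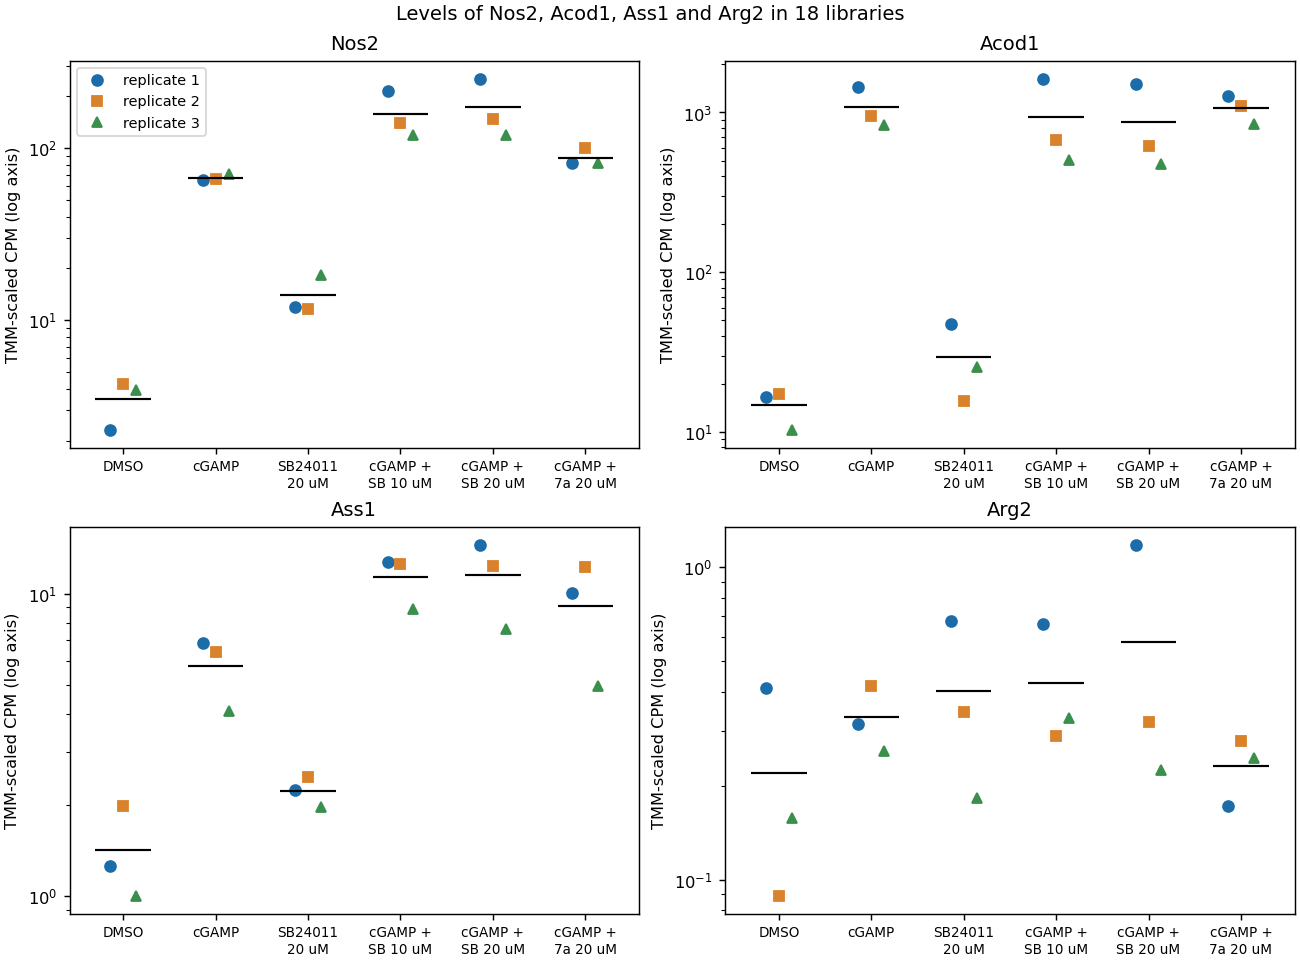
Level of Nos2, Acod1, Ass1 and Arg2 in each library (TMM-scaled CPM, log axis) by treatment group; points are the 3 replicates of a group and bars are group means. Nos2 lies at 65.1 to 70.1 CPM with cGAMP and at 118 to 252 CPM with cGAMP and 20 uM SB24011, while the Acod1 libraries of these groups overlap.

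Nos2 (NCBI Gene 18126) lies at chr11:78920787-78960226 in GRCm38 and overlaps no other annotated gene. Its level was 2.305, 4.24 and 3.94 CPM in DMSO and 65.1, 66.0 and 70.1 CPM with cGAMP. With 20 uM SB24011 alone it was 11.9, 11.6 and 18.4 CPM. These 3 groups did not overlap, and the cGAMP libraries lay within a narrow range. On top of cGAMP, 10 uM SB24011 gave 214, 139 and 119 CPM and 20 uM gave 252, 147 and 118 CPM. With 7a on top of cGAMP the level was 81.7, 99.999 and 82.1 CPM. Every library with cGAMP and SB24011 was above every library with cGAMP alone or with 7a, and the replicate 1 libraries were the highest of both SB24011 doses.

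The rise of Nos2 with cGAMP was 4.27 ± 0.34 on the log2 scale (SE; edgeR adjusted p = 2.7e-07), which is 19.3-fold with a 95% interval from 11.6 to 32.1. SB24011 alone raised it by 2.00 ± 0.33 (edgeR adjusted p = 0.00021), a fold of 4.01 with an interval from 2.44 to 6.58. On top of cGAMP, 20 uM SB24011 raised it by a further 1.36 ± 0.29 (edgeR adjusted p = 0.00158), a fold of 2.57 with an interval from 1.68 to 3.95, and the difference was above 0 within each library set, at 1.95, 1.15 and 0.75 in sets 1, 2 and 3. Without library set 1 the rise was 0.96 (edgeR adjusted p = 0.00442). With 10 uM the rise was 1.23 ± 0.29 (edgeR adjusted p = 0.00346). In cells that had SB24011, cGAMP raised Nos2 by 3.63 ± 0.32 (edgeR adjusted p = 7.9e-07), a comparison in which 3 of the 4 genes were called higher beside 15% of all genes. The effect of SB24011 in cGAMP-treated cells less its effect in vehicle-treated cells was -0.64 with an interval from -1.58 to 0.29 and did not pass the test (edgeR adjusted p = 0.751).

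**Figure D2:**
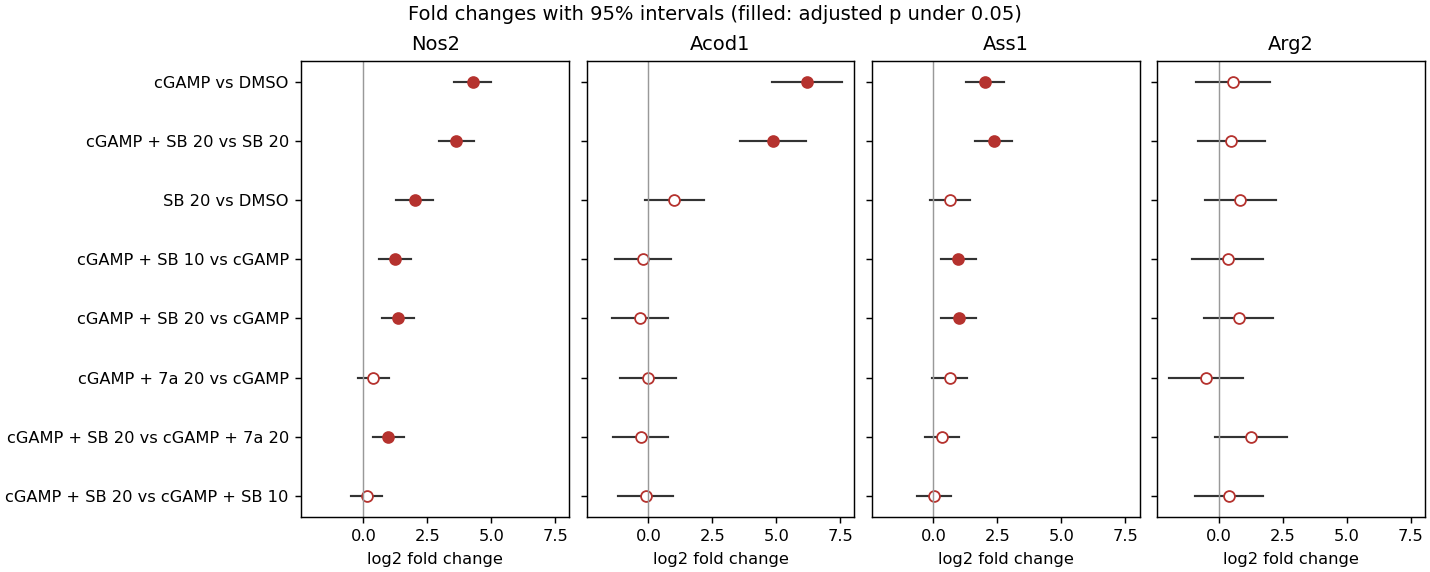
Log2 fold change of Nos2, Acod1, Ass1 and Arg2 in 8 comparisons from edgeR's quasi-likelihood fit, with 95% intervals; filled points have an adjusted p under 0.05. Nos2 is called in 6 of the 8 comparisons and Arg2 in none.

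Acod1 (NCBI Gene 16365) lies at chr14:103047012-103056573 and Ass1 (NCBI Gene 11898) at chr2:31470270-31520670. Their promoters, from 250 bases before to 50 after the RefSeq start in GRCm38.p6, are printed on the plus strand because both genes rose with cGAMP and the sequences differ plainly in base composition, with 47% G and C in Acod1 and 74% in Ass1. RefSeq promoters were at hand for 2 of the 6 genes. Capitals mark the only match to 6 motifs that were searched on both strands.
Acod1 chr14:103046762-103047061: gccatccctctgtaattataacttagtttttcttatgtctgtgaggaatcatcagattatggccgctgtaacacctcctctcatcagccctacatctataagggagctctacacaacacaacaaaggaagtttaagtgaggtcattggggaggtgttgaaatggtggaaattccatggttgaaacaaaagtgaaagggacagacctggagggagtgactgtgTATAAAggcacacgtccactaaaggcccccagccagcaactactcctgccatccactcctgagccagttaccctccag
Ass1 chr2:31470020-31470319: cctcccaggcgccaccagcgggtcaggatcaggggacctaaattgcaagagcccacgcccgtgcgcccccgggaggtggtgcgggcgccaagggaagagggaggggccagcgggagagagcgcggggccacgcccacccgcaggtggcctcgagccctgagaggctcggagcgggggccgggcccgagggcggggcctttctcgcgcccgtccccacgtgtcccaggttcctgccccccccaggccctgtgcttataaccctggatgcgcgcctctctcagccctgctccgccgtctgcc
The motifs were TATAAA (the TATA box), TTCNNNGAA (the GAS element of STAT factors), the ISRE of interferon response genes, the kB site of NF-kB, TGANTCA (AP-1) and TGATGNAA (the composite site of ATF4 and CHOP). The match in Acod1 is TATAAA, whose first base is 28 bases before the start, and 13.6% of 32851 promoters of the same length hold it. The other 5 strings, which 3.44% to 19.2% of these promoters hold, have no match in either window. Each motif was searched as a fixed string, so variant forms and near matches were not covered.

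Acod1 went from a low to a very high level with cGAMP and did not pass the test for any further change with SB24011. Its level was 16.5, 17.2 and 10.3 CPM in DMSO and 1449.9, 946 and 834 CPM with cGAMP. SB24011 alone gave 47.6, 15.5 and 25.6 CPM, overlapping DMSO. With cGAMP it was 1629, 669 and 506 CPM at 10 uM SB24011, 1507, 618 and 473 CPM at 20 uM, and 1261, 1099.6 and 850.3 CPM with 7a. The 4 groups with cGAMP overlapped one another and lay above both groups without it, and in each of these 4 groups replicate 1 was the highest library. Per transcript length, its mean rose from 5.08 to 341 FPKM, from rank 7902 to rank 177 among the 45777 genes of the table.

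The rise of Acod1 with cGAMP was 6.20 ± 0.64 (log2, SE; edgeR adjusted p = 3.83e-06), 73.3-fold with an interval from 28.2 to 190.4, and 4.87 ± 0.60 in cells with SB24011 (edgeR adjusted p = 2.68e-05). On top of cGAMP, 20 uM SB24011 gave -0.31 with an interval from -1.40 to 0.78 (edgeR adjusted p = 0.655), and within library sets 1, 2 and 3 the difference was 0.06, -0.61 and -0.82. Left without replicate 1 of the combination, the value was -0.98 (edgeR adjusted p = 0.149), and without library set 1 it was -0.71 (edgeR adjusted p = 0.102). SB24011 alone gave 1.01 ± 0.53 (edgeR adjusted p = 0.143). In that comparison same-numbered libraries deviated together, and with the library set as a block Acod1 was called higher at 0.93 (edgeR adjusted p = 0.0383). The predicted gene Gm41235 overlaps Acod1 on the map, with 8504 reads in all libraries, and its level went from 1.92 CPM in DMSO to 16.5 CPM with cGAMP. The strand setting of the counting is not given in the sources used here.

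Ass1, the citrulline-recycling enzyme, had a low level, and its group means stood in the same order as those of Nos2. It was 1.26, 1.99 and 1.00 CPM in DMSO, 2.24, 2.49 and 1.97 CPM with SB24011 alone and 6.86, 6.39 and 4.09 CPM with cGAMP. The cGAMP libraries lay above both groups without cGAMP, which overlapped each other. On cGAMP it was 12.7, 12.5 and 8.89 CPM with 10 uM SB24011, 14.5, 12.3 and 7.63 CPM with 20 uM and 10.0, 12.2 and 4.95 CPM with 7a. Both SB24011 doses lay above cGAMP alone, and the 7a libraries overlapped all 3 other groups with cGAMP.

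Ass1 rose by 2.01 ± 0.35 with cGAMP (log2, SE; edgeR adjusted p = 0.000364), a fold of 4.04 with an interval from 2.39 to 6.82, and by 2.36 ± 0.34 with cGAMP in cells that had SB24011 (edgeR adjusted p = 7.73e-05). On cGAMP it rose by 0.98 ± 0.32 with 20 uM SB24011 (edgeR adjusted p = 0.0222) and by 0.97 ± 0.32 with 10 uM (edgeR adjusted p = 0.0252). Within library sets 1, 2 and 3 the difference at 20 uM was 1.07, 0.94 and 0.89. These calls were lost without replicate 3 of cGAMP alone (0.79 at 20 uM and 0.77 at 10 uM; edgeR adjusted p = 0.0956 and 0.107), without replicate 1 or 2 of the combinations (0.78 to 0.93; edgeR adjusted p from 0.0566 to 0.0933), and without library set 1 (0.92 at 20 uM and 1.03 at 10 uM; edgeR adjusted p = 0.163 and 0.128). SB24011 alone gave 0.64 ± 0.37 (edgeR adjusted p = 0.173) and, with the library set as a block, 0.68 (edgeR adjusted p = 0.00695). The block thus raised the count for SB24011 alone from 1 to 3 of the 4 genes. Over all genes it raised the calls in either direction from 6541 (45.7% of them higher) to 7811 (46.1% higher).

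**Figure D3:**
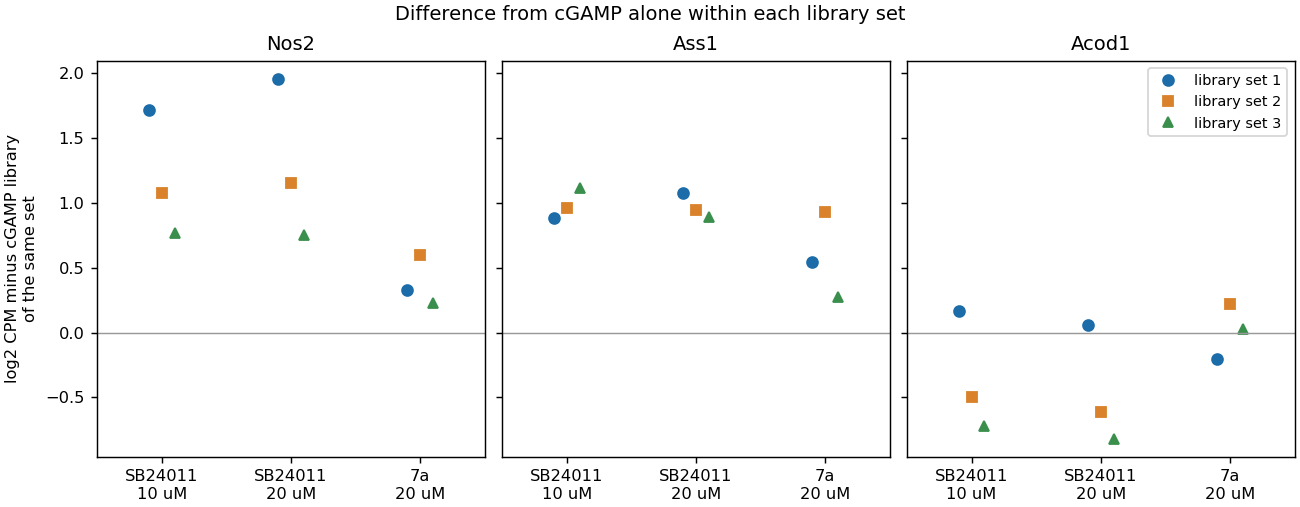
Difference in log2 CPM (prior count of 2) from the cGAMP library of the same library set for Nos2, Ass1 and Acod1 with 10 uM SB24011, 20 uM SB24011 or 20 uM 7a added to cGAMP; each point is 1 library set. With 20 uM SB24011, Nos2 lies at 0.75 to 1.95 and Ass1 at 0.89 to 1.07, while Acod1 spans 0.06 to -0.82.

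Slc7a2, Arg1 and Arg2 gave little or no signal. For Slc7a2 (NCBI Gene 11988; chr8:40862341-40922070), the inducible arginine carrier, 3 reads were counted in replicate 2 of cGAMP with 7a and 0 in each of the other 17 libraries. For Arg1 (NCBI Gene 11846; chr10:24915207-24927470), the cytosolic arginase of alternatively activated macrophages, 3 reads were counted in replicate 2 of cGAMP with 20 uM SB24011 and 0 in the other 17. A count of 0 allows up to 3 reads, which is 0.0440 to 0.0697 CPM in these libraries and covers counting error only. A change in either gene was not detectable at this depth.

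Arg2 (NCBI Gene 11847; chr12:79130788-79156301), the mitochondrial arginase, was near the floor of detection. Its reads numbered 28, 6 and 8 in DMSO, 18, 18 and 12 with cGAMP and 42, 20 and 11 with SB24011 alone. On cGAMP they numbered 32, 16 and 17 with 10 uM SB24011, 54, 14 and 14 with 20 uM and 8, 15 and 15 with 7a. All groups overlapped their neighbours in the order of means, and replicate 1 held the highest count of each group with SB24011. With cGAMP the difference was 0.57 (interval from -0.86 to 2.00; edgeR adjusted p = 0.573), and Arg2 was called in none of the 9 comparisons. It shares 285 of 1428 exon bases with Vti1b on the opposite strand, a gene at 52.5 to 60.3 CPM, so that part of these few reads is uncertain where strand was not used in counting.

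The analog 7a and SB24011 can be compared at 20 uM on cGAMP. With 7a added to cGAMP, 0 of the 4 genes were called higher beside 0% of all genes by edgeR, where 1208 of 14650 genes had an unadjusted p under 0.05. Of all genes, DESeq2 called 39, edgeR called 8 with the library set as a block, and edgeR called 48 without replicate 3 of 7a. Nos2 was 0.39 above cGAMP alone with an interval from -0.22 to 1.00 (edgeR adjusted p = 0.76), although its 7a libraries lay above the 3 cGAMP libraries, which 12.7% of all genes did in either direction. Ass1 was at 0.64 (interval from -0.04 to 1.33; edgeR adjusted p = 0.62) and Acod1 at -0.01 (interval from -1.10 to 1.08; edgeR adjusted p = 0.9996).

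Set directly against 7a, 20 uM SB24011 gave 1 of 4 called higher, beside 19.7% of all genes. That gene was Nos2, at 0.97 ± 0.28 (log2, SE; edgeR adjusted p = 0.0152), a fold of 1.96 with an interval from 1.28 to 3.00. Within library sets 1, 2 and 3 the difference was 1.63, 0.55 and 0.53. The call was lost without replicate 1 of the SB24011 combination, where the value fell to 0.59 (edgeR adjusted p = 0.0948), without replicate 1 or 3 of 7a (0.92 in both; edgeR adjusted p = 0.0501 and 0.0545), and without library set 1 (0.54; edgeR adjusted p = 0.0565). Ass1 did not pass the test, at 0.34 with an interval from -0.33 to 1.01, and neither did Acod1, at -0.31 with an interval from -1.40 to 0.78. The comparisons with cGAMP alone share its 3 libraries.

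Between 20 and 10 uM SB24011 on cGAMP, 0 of the 4 genes were called, beside 0% of all genes by edgeR; 404 genes had an unadjusted p under 0.05 and DESeq2 called 0. The intervals of the difference were -0.47 to 0.73 for Nos2, -0.65 to 0.68 for Ass1 and -1.20 to 0.98 for Acod1. A difference of up to 1.66-fold in Nos2 thus lies within its interval. For the difference of the SB24011 effects with and without cGAMP, 0 of 4 genes were called beside 0.369% of all genes. The estimate farthest from 0 was that of Acod1, at -1.33 with an interval from -2.91 to 0.26 (edgeR adjusted p = 0.656).

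The balance between the genes for itaconate and nitric oxide was read from their levels in each library. The ratio of Acod1 to Nos2 FPKM, which is per transcript length, was 7.42 on average in DMSO and ranged from 4.19 to 11.5. It was 26.0 with cGAMP (19.1 to 35.8) and 19.7 with 7a on cGAMP (16.7 to 24.8). It was 8.93 with 10 uM SB24011 on cGAMP (6.83 to 12.2), 7.60 with 20 uM (6.43 to 9.61) and 3.61 with SB24011 alone (2.16 to 6.43). The 3 ratios of each SB24011 combination lay below those of cGAMP alone and of cGAMP with 7a, and replicate 1 had the highest ratio in 6 of 6 groups. These ratios are a description and carry no test.

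**Figure D4:**
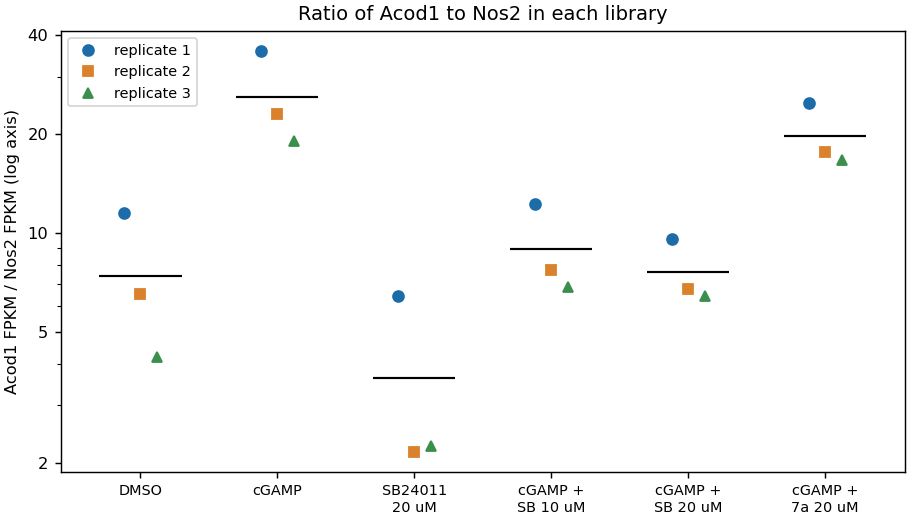
Ratio of Acod1 to Nos2 (FPKM over FPKM, log axis) in each library by treatment group; points are replicates and bars are group means. The ratio lies at 19.1 to 35.8 with cGAMP and at 6.43 to 9.61 with cGAMP and 20 uM SB24011.

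Across the 18 libraries, whose groups and sets the values share, Nos2 and Ass1 correlated at r = 0.949 (Spearman rho = 0.936), Nos2 and Acod1 at r = 0.927 (rho = 0.690) and Acod1 and Ass1 at r = 0.909 (rho = 0.777). The genes compared were 10454 tested genes averaging 1 CPM or more. The genes described here and symbols of the Gm, LOC and Rik kinds were left out. Among the genes compared, the patterns most like Nos2 were those of Oas1g (r = 0.991), Snx10 (0.990) and Car13 (0.990). Those most like Acod1 were Nampt (r = 0.997), Ifi35 (0.996) and Sp100 (0.996), and those most like Ass1 were Xdh, Rhbdf2 and Caml (0.979 to 0.980). For Arg2 the highest r was lower, at 0.822 for Kdm5c. These values are descriptive.

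Among genes that supply inducible nitric oxide synthase with its cofactor tetrahydrobiopterin, Gch1, the rate-limiting enzyme of its synthesis, rose with each agent. Its level was 20.0, 26.2 and 19.1 CPM in DMSO, 97.8, 93.6 and 91.1 CPM with cGAMP and 87.1, 76.4 and 80.3 CPM with SB24011 alone. The combination at 20 uM gave 185, 146 and 140.5 CPM, above all of these. The rise was 2.11 ± 0.13 with cGAMP (log2, SE; edgeR adjusted p = 2.54e-09), 1.90 ± 0.13 with SB24011 alone (edgeR adjusted p = 7.17e-09) and 0.74 ± 0.12 with 20 uM SB24011 on cGAMP (edgeR adjusted p = 0.000127). It was 0.63 ± 0.12 above 7a (edgeR adjusted p = 0.000644). Of the 7 tested genes of tetrahydrobiopterin synthesis and recycling, 1 rose and 1 fell with cGAMP, 2 rose and 2 fell with SB24011 alone, and 2 rose and 1 fell with 20 uM SB24011 on cGAMP. The counts of this and the other pathway lists stand beside 15.6% of all genes that rose and 19.8% that fell with cGAMP, 20.4% and 24.3% with SB24011 alone, and 21.7% and 20.6% with 20 uM SB24011 on cGAMP. Spr, the last enzyme of the synthesis, fell by 0.35 with cGAMP.

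Of the 4 tested genes for other nitric oxide synthases and their adaptors, 2 rose and 1 fell with SB24011 alone, and 3 rose and 1 fell with 20 uM on cGAMP, while 2 fell with cGAMP. Among those that rose in both settings was Nos3, which averaged only 0.356 CPM. Nos3 had 356 reads in all and overlaps Gm15587 and Atg9b, which had 19183. Part of its few reads is therefore uncertain where strand was not used in counting. Nos1, the neuronal synthase, was at 1.23, 0.531 and 0.667 CPM in DMSO and at 1.39, 0.441 and 0.689 CPM with cGAMP. SB24011 alone gave 3.59, 1.48 and 2.17 CPM, and 20 uM of it on cGAMP gave 7.09, 4.58 and 3.97 CPM. Its libraries with SB24011 lay above those without it, with a rise of 1.57 ± 0.42 alone (log2, SE; edgeR adjusted p = 0.00607) and 2.60 ± 0.42 on cGAMP (edgeR adjusted p = 0.000132). The call with SB24011 alone was lost in limma on the deposited quantile-normalized values (0.15; adjusted p = 0.0748). Per transcript length its mean was 0.437 FPKM with cGAMP and 20 uM SB24011, where Nos2 was at 33.7 FPKM. The falls of Nosip and Nostrin with cGAMP had log2 values of -0.20 and -0.42 and were each lost in 5 of 16 alternatives (adjusted p up to 0.104 and 0.16), among them without library set 1. The rise of Nostrin with 20 uM SB24011 on cGAMP was lost in 4 of 16 (adjusted p up to 0.0836).

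Of the 7 tested genes of nitric oxide sensing and removal, 2 fell with cGAMP, and 1 rose and 2 fell with SB24011 alone and with 20 uM SB24011 on cGAMP. Those that fell were the thioredoxin genes Txn1 and Txn2 and the thioredoxin reductase gene Txnrd2, by 0.38 or less. Of these calls, Txn2 with cGAMP was lost in 8 of 16 alternatives (adjusted p up to 0.129), Txnrd2 with cGAMP in 4 of 16 (up to 0.0947) and Txn1 with SB24011 on cGAMP in 10 of 16 (up to 0.0919). Adh5, which encodes a reductase of nitrosoglutathione, rose by 0.27 with SB24011 alone (edgeR adjusted p = 0.0081) and by 0.35 on cGAMP (edgeR adjusted p = 0.0012). Gucy1a1 and Gucy1b1, which encode the nitric oxide receptor guanylate cyclase, had 0 reads in every group.

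Other genes of cationic amino acid transport had many more reads than Slc7a2. Slc7a1, the constitutive arginine carrier, was at 352, 404 and 381 CPM in DMSO and 365, 399.8 and 376 CPM with cGAMP. SB24011 alone gave 725, 712 and 712 CPM, and the combination at 20 uM gave 779, 766 and 641 CPM. Its levels with SB24011 were all above those without it, with a rise of 0.92 ± 0.07 alone (log2, SE; edgeR adjusted p = 3.76e-08) and 0.94 ± 0.07 on cGAMP (edgeR adjusted p = 4.07e-08), and with cGAMP alone it did not pass the test (0.0047; edgeR adjusted p = 0.971). Of the 8 genes of the list, all tested, 6 rose and 1 fell with SB24011 alone, with a median of 0.79 beside -0.0067 for all genes. On cGAMP, 5 rose and 1 fell with 20 uM SB24011 (median 0.73 beside 0.022 for all genes), and 2 fell with cGAMP. Slc3a2, the heavy chain shared by several carriers, rose by 1.77 ± 0.12 and 1.94 ± 0.13 with SB24011 alone and on cGAMP. Slc7a7, a light chain that exports arginine, rose by 1.90 and 1.82, but it overlaps Oxa1l, which has more reads. Slc7a6, another such light chain, fell by 0.69 and 0.74 and by 0.45 with cGAMP.

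**Figure D5:**
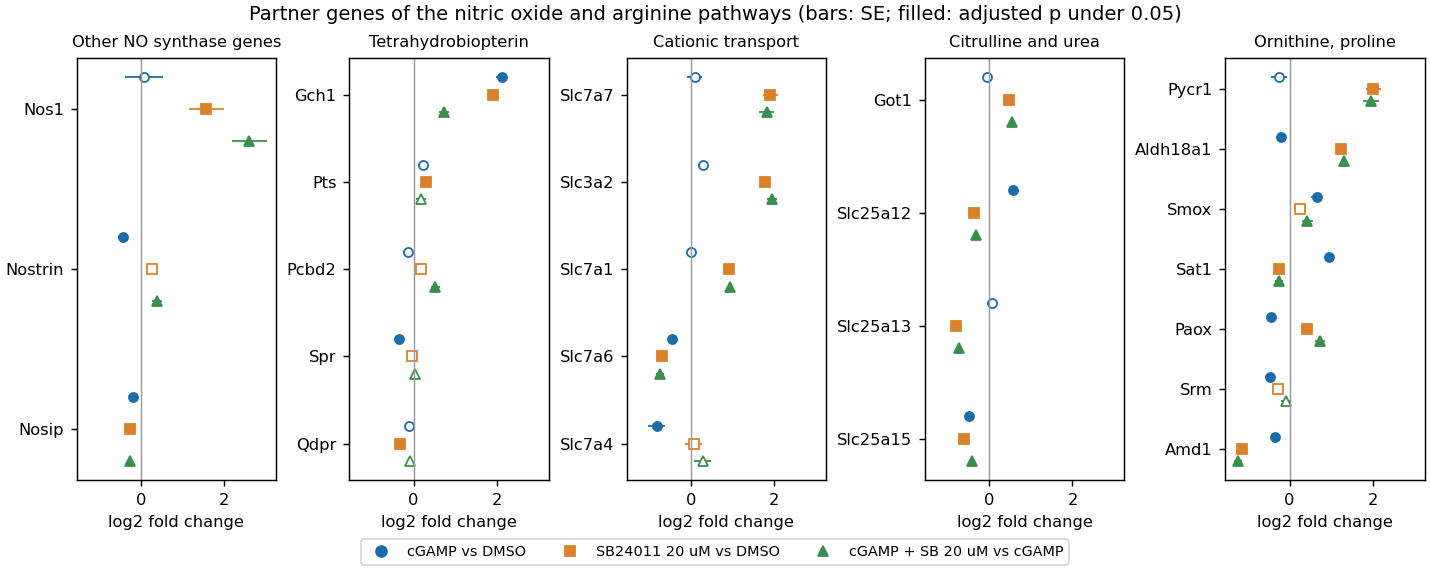
Log2 fold changes with SE of named genes from 5 pathway lists for cGAMP against DMSO (circles), 20 uM SB24011 against DMSO (squares) and 20 uM SB24011 added to cGAMP (triangles); filled symbols have an edgeR adjusted p under 0.05. Gch1 rises in all 3 comparisons, while Slc7a1, Slc3a2, Pycr1 and Aldh18a1 rise with SB24011 in both settings.

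Asl, which completes the step begun by Ass1, was at 25.3 to 31.4 CPM in the 18 libraries and was not called with cGAMP (0.02; edgeR adjusted p = 0.897), with SB24011 alone (-0.06; edgeR adjusted p = 0.507) or with SB24011 on cGAMP (-0.06; edgeR adjusted p = 0.526). Of the 6 tested genes of the citrulline and urea cycle list, 1 rose and 1 fell with cGAMP, 1 rose and 4 fell with SB24011 alone, and 1 rose and 3 fell with 20 uM SB24011 on cGAMP. The count that fell with cGAMP was 3 when scaled by library size alone and 2 with the block. Of all genes, 5149 fell with library size alone, beside 2903 with TMM factors. The block called 6418 in either direction (42.6% higher), beside 5193 without it (44.1% higher). Slc25a13, a mitochondrial carrier of aspartate and glutamate, fell by 0.80 ± 0.06 alone and by 0.72 ± 0.06 on cGAMP, and Slc25a15, the mitochondrial ornithine carrier, fell by 0.59 and 0.41. Got1, which makes the aspartate that Ass1 uses, rose by 0.47 ± 0.05 and 0.55 ± 0.05. Slc25a12, another aspartate and glutamate carrier, rose by 0.58 ± 0.07 with cGAMP and fell by 0.37 with SB24011 alone.

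Of the 19 tested genes that use or make ornithine, polyamines and proline, 2 rose and 6 fell with cGAMP, 4 rose and 7 fell with SB24011 alone, and 6 rose and 7 fell with 20 uM SB24011 on cGAMP. The count that fell with cGAMP was 11 when scaled by library size alone and 9 with the library set as a block. All genes that fell rose in number from 2903 to 5149 with library size alone. All-gene calls in either direction went from 5193 (44.1% higher) to 6418 (42.6% higher) with the block. Pycr1, the last step of proline synthesis, was at 5.92, 4.82 and 5.35 CPM in DMSO and 25.2, 18.5 and 21.4 CPM with SB24011 alone. It was at 5.02, 3.60 and 4.91 CPM with cGAMP and 17.9, 15.96 and 18.6 CPM with cGAMP and 20 uM SB24011. The groups with and without SB24011 did not overlap, and the rise was 2.01 ± 0.18 alone (log2, SE; edgeR adjusted p = 2.03e-07) and 1.95 ± 0.19 on cGAMP (edgeR adjusted p = 5.15e-07). Aldh18a1, the first step of proline synthesis, rose by 1.24 ± 0.07 and 1.31 ± 0.07 in these comparisons. Amd1, which supplies the propyl group of spermidine and spermine, fell by 1.13 ± 0.09 and 1.23 ± 0.09. Sat1, which acetylates polyamines for export, rose by 0.95 ± 0.09 with cGAMP (edgeR adjusted p = 6.2e-07), and so did the spermine oxidase gene Smox, by 0.65 ± 0.13. Odc1, the ornithine decarboxylase gene, was not called in any of these 3 comparisons. With 7a added to cGAMP, 0 genes were called in each of the 8 pathway lists.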

How the data were processed

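RNA of 18 libraries, 3 in each of 6 treatment groups, was sequenced after a stranded poly-A mRNA kit, per the labels' protocols. The mouse build GRCm38, StringTie 2.1.3b and HISAT2 2.1.0 are named in the submitters' processing notes, as are Bowtie2 2.3.4.1 and Trimmomatic 0.38. The authors deposited a read count and an FPKM value per gene and library, and a TPM value that was not used here. They also deposited log2 values after quantile normalization, which cover 13908 genes with a count above 0 in 18 of 18 libraries. Totals were 45165780 to 65810517 counts per library, which limits what can be detected of genes with few reads.

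Counts were tested with edgeR 4.0.16 in R 4.3.3 (filterByExpr, TMM factors of 0.946 to 1.11, robust quasi-likelihood fit of 18 libraries with 12 residual degrees of freedom, Benjamini-Hochberg adjustment over 14650 genes, threshold 0.05, two-sided). The SE is the fold change over the root of F. The fit was tested on simulated data. Within-set differences and correlations used log2 CPM with a prior count of 2. Alternatives were other scaling, other filters, fewer groups, the library set as a block, DESeq2 1.42.0, limma 3.58.1 on log2(FPKM + 1) and on the quantile-normalized values, and each replicate left out. Leaving out library set 1 was added after seeing the data. After group means were removed, 18 of 18 libraries correlated best, among libraries of other groups, with one of their own set. The median r was 0.122 within sets and -0.061 between sets, and the main fit leaves the set out. Each same-set r was above 0.1 for SB24011 against DMSO (0.125 to 0.178), 7a on cGAMP (0.137 to 0.183) and cGAMP on SB24011 (0.105 to 0.176). In the other comparisons the lowest was 0.0242. The block value is given beside a result of the 3 comparisons above 0.1 where it changes a call.

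The 6 genes and the 8 pathway lists were chosen with earlier results of these data known. For each list up to 4 called genes with the highest absolute fold change and a mean of at least 1 CPM are named. Some of these are not reported here. Asl, Odc1, Mrc1, Nos3 and list genes at 0 were named after their values were seen.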

Additional observations from a re-analysis of the deposited data

Results flagged for a closer look

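The fold change of Gch1 with SB24011 differed between cells with and without cGAMP in a test of the difference itself. No other gene of the pathway lists was called in the same edgeR fit. With the library set as a block, 1 other gene of the tetrahydrobiopterin list was called. The effect of 20 uM SB24011 in cGAMP-treated cells less its effect in vehicle-treated cells was -1.16 ± 0.17 on the log2 scale (edgeR adjusted p = 0.00469). The rise was 1.90 without cGAMP and 0.74 with it, starting from 19.1 to 26.2 CPM in DMSO and 91.1 to 97.8 CPM with cGAMP. Mean levels were 21.8 CPM in DMSO, 81.25 with SB24011 alone, 94.1 with cGAMP and 157 with cGAMP and 20 uM SB24011. By these means the rise in CPM was of similar size in both settings, so the result concerns fold changes only. A difference in CPM was not tested. The difference kept its direction and its call in 22 of 22 alternatives, from -1.32 to -1.08, with adjusted p from 3.72e-08 to 0.0305.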

How the results depend on the processing

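The 12 calls among Nos2, Acod1 and Ass1 were each recomputed under 16 alternatives, which gave 192 values. Of these, 180 kept the call, 12 lost it and 0 changed direction. For the calls of named pathway list genes, 1184 recomputed values kept the call and 54 lost it. These 54 were in Txn1, Txn2, Txnrd2, Nosip, Nostrin, Pts, Tgm2, Clec10a, Nos1, Paox, Slc25a12 and Slc25a1. The losses among the 3 genes concern Ass1 with SB24011 on cGAMP and Nos2 against 7a. Without library set 1, members called higher numbered 1 with 20 uM and 1 with 10 uM SB24011 on cGAMP, and 0 against 7a; with 1 library left out at a time they ranged from 1 to 2, 1 to 2 and 0 to 1. Over all genes, calls in either direction without library set 1 numbered 5193, 4852 and 4809 in these comparisons. With all libraries they numbered 6201, 5708 and 5336. When the set entered as a replicate block, 3 members were called for SB24011 alone, beside 7811 of all genes called in either direction. The block changed no other member call. The cause was not tested.

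Among the 4 tested genes, direction changed only in results that were not called. Acod1 with 7a on cGAMP was 0.13 without set 1, 0.034 with the block, 0.0099 with library size alone and -0.16 to 0.27 with 1 library left out. Leaving out 1 library moved Acod1 with 10 uM SB24011 on cGAMP from -0.87 to 0.093. Between the doses it gave -0.78 to 0.56 for Acod1, -0.25 to 0.42 for Nos2, -0.19 to 0.24 for Ass1 and -0.65 to 0.88 for Arg2. The dose difference of Ass1 was -0.11 without set 1, -0.0076 with the block, -0.022 in limma on FPKM and -0.0030 on quantile-normalized values. Arg2 without set 1 was -0.32 and -0.13 with 20 and 10 uM SB24011 on cGAMP and -0.19 between doses. Leaving out 1 library gave -0.29 to 1.19, -0.10 to 0.58, and -0.57 to 1.11 for cGAMP on SB24011. In the difference of SB24011 effects, Nos2 was 0.017 in limma on FPKM and 0.11 on quantile-normalized values. Arg2 was 0.0074 on the latter and -1.15 to 0.53 with 1 library left out.

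Without TMM factors, library size alone shifted the median of all genes from -0.057 to -0.187 with cGAMP and the share of calls that were higher from 44.1% to 24.9%. In limma on FPKM this share was 24.0%. Genes called lower with cGAMP went from 2903 to 5149 and 5014 in these fits. For cGAMP on SB24011 they went from 1814 to 4760 and 4620, to 3216 on quantile-normalized values and to 1178 without set 1, and genes called higher went from 2194 to 1462 in limma on FPKM. For SB24011 alone the share higher was 45.7%, and 57.4% with library size alone. For the difference of SB24011 effects, 36 genes were called higher and 18 lower; the block gave 211 and 110, DESeq2 96 and 86, and genes called higher were 20 with RLE factors, 10 with library size alone, 8 with fewer groups and 5 without set 1. Arg1 and Slc7a2 had almost no reads and were not tested, and Arg2 was limited by its few reads.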

Other observations

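The citrate cycle supplies the substrate of Acod1. Of its 25 tested genes, 0 rose and 7 fell with cGAMP, 2 rose and 11 fell with SB24011 alone, and 4 rose and 9 fell with 20 uM SB24011 on cGAMP. Of all genes tested, 15.6% rose and 19.8% fell with cGAMP, 20.4% and 24.3% with SB24011 alone, and 21.7% and 20.6% with SB24011 on cGAMP. With cGAMP the count that fell was 20 when scaled by library size alone and 12 with the library set as a block. Of all genes, 5149 fell with library size alone, beside 2903 with TMM factors. The block called 6418 in either direction (42.6% higher), beside 5193 without it (44.1% higher). On cGAMP, SB24011 gave 5 that rose and 6 that fell with library size alone, 6 and 9 with the block, and 3 and 6 without library set 1. All-gene calls in these fits numbered 6005 (56.8% higher), 7496 (51.2%) and 5193 (49.3%), beside 6201 (51.3%) in the main fit. The list medians were -0.08, -0.10 and -0.04 beside -0.06, -0.0067 and 0.022 for all genes. Slc25a10, the mitochondrial dicarboxylate carrier, fell by 0.67 ± 0.10 with cGAMP (log2, SE; edgeR adjusted p = 6.24e-05), by 1.06 ± 0.10 with SB24011 alone (edgeR adjusted p = 3.32e-07) and by 0.69 ± 0.10 with SB24011 on cGAMP (edgeR adjusted p = 4.45e-05). Idh1, the cytosolic isocitrate dehydrogenase, fell by 0.59, 0.56 and 0.37. Sdhd, a subunit of succinate dehydrogenase, fell by 0.72 and 0.56 with SB24011 alone and on cGAMP. Dld, a subunit shared by several dehydrogenase complexes, rose by 0.63 and 0.57. Clybl, which takes part in breaking down citramalyl-CoA formed from itaconate, rose by 0.42 and 0.48.

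Of 8 tested genes of alternative macrophage activation, the state in which Arg1 is known to be high, 2 rose and 1 fell with cGAMP and with SB24011 alone, and 3 rose and 1 fell with 20 uM SB24011 on cGAMP. Retnla and Chil3, markers of that state, had 0 reads in every group, as Arg1 had in 17 of 18 libraries. Mrc1, another such marker, averaged only 0.605 CPM and rose by 3.41 ± 0.57 with cGAMP (edgeR adjusted p = 0.000148). It was not called with SB24011 alone or on cGAMP. The gene that fell was Ppargc1b, with log2 values of -0.45 with cGAMP, -0.58 with SB24011 alone and -0.32 on cGAMP. Clec10a, a lectin gene, rose by 1.54 ± 0.27 with SB24011 alone (log2, SE; edgeR adjusted p = 0.0002) and by 0.92 ± 0.28 on cGAMP (edgeR adjusted p = 0.0141), a call lost in 3 of 16 alternatives, among them without library set 1 (0.96; edgeR adjusted p = 0.0769). With 7a on cGAMP, Clec10a was at 0.67 (edgeR adjusted p = 0.551). Set against 7a, 20 uM SB24011 gave 0.25 and did not pass the test (edgeR adjusted p = 0.526). Il4ra, the interleukin-4 receptor gene, rose by 0.88 ± 0.21 with SB24011 on cGAMP (edgeR adjusted p = 0.00318).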
